A study of Mus musculus with 6 samples.

Results

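ATP-binding cassette (ABC) transporter genes were read out in kidneys of wild-type mice and of mice labelled as knockouts of Hspa8, a chaperone gene. The members are all genes of the deposited table whose symbol names a numbered ABC gene of subfamily A to G, leaving out pseudogene symbols and Abca1, Abcg1 and Abcd3. This gave 47 genes of 34714 in the table, 15 in subfamily A, 10 in B, 10 in C, 3 in D, 1 in E, 3 in F and 5 in G. RNA came from kidneys of mice 8 weeks old on normal chow, 3 labelled WT, with C57 in the title, and 3 labelled Hspa8 knockout. The husbandry notes list C57BL/6J mice, Hspa8-floxed (Hspa8flox/flox) mice and Cdh16-Cre mice, in which a promoter of tubule epithelium drives Cre, and no label says whether the wild-type animals carried the floxed allele or Cre. Cells outside the tubules, and tubule cells that Cre missed, would keep Hspa8.

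ABC proteins share a domain that binds and splits ATP. Most use it to carry a substrate across a membrane: sterols and phospholipids in subfamily A, drugs, peptides and iron or haem compounds in B, organic anions in C, fatty acids and cobalamin in D, and drugs, urate or sterols in G. Members of subfamilies E and F have no membrane part and act on ribosomes. In the proximal tubule, apical exporters of this family pass organic anions, urate and drugs from the cell into the urine.

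Levels are in FPKM, a fragment count scaled to transcript length and to the mapped total, so that levels of different genes can be set side by side. Wherever 3 values are given for a group they belong to its replicates 1, 2 and 3, in that order. Hspa8 had 1058, 1092 and 1318 FPKM in the wild-type libraries, against 650, 699 and 781 FPKM in those of the knockout. Its RNA was thus lower in each knockout library, at 61.4% of the wild-type mean (exact two-sided permutation p = 0.1, the smallest that 3 against 3 can give; limma adjusted p = 0.866). Library sums ran from 381586 to 417123 FPKM. The tissue carried the markers of kidney. The 6 proximal tubule markers summed to 2138 to 2699 FPKM and the 3 thick ascending limb markers to 918 to 1545 FPKM. The 3 adrenal cortex markers summed to 0.903 to 1.27 FPKM and the 3 hepatocyte markers to 5.02 to 6.56 FPKM. Of these, Cyp11b1 of the adrenal cortex and Cyp7a1 of the liver were listed at 0 in all 6 libraries. Star of the adrenal list and Alb and Apoa2 of the liver list were above 0 in each. The first principal component held 47.5% of the variance and did not separate the groups: wild-type replicate 3 lay at 23.0, knockout replicate 2 at 10.6, wild-type replicate 2 at 0.21 and the other 3 libraries from -13.4 to -10.1.

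In this kidney RNA the 47 members were led by 3 transporter genes. Abcg2, Abca3 and Abcc2 together made up 60.1% of the summed FPKM of the 47 members. Abcd3, which was left out of the members, had a mean of 140 FPKM over the 6 libraries, above that of each member but Abcg2. A mean of at least 10 FPKM over the 6 libraries was found for 12 members, a mean from 1 to 10 FPKM for 17, and a mean above 0 but under 1 FPKM for 13. The 5 others, Abca12, Abca15, Abca16, Abcb5 and Abcb11, the last of which encodes the bile salt export pump of liver, were listed at 0 in every library. The 29 genes with a mean of at least 1 FPKM were tested. Abcb1a, at 1.15 FPKM, lay just inside this limit and Abca8b, at 0.444 FPKM, was the nearest below it.

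Abcg2 (chromosome 6, 58584523 to 58695676, plus strand, GRCm38) encodes the breast cancer resistance protein, an exporter of drugs and urate. It had 216, 194 and 138 FPKM in the wild-type libraries, against 210, 166 and 200 FPKM in those of the knockout. The groups overlapped, and wild-type replicate 3 was lowest. Abca3 (chromosome 17, 24351950 to 24410201, plus strand), known for loading phospholipid into the lamellar bodies of the lung, had 100.5, 72.1 and 51.7 FPKM in the wild-type libraries, against 84.1, 54.9 and 84.0 FPKM in those of the knockout. Its highest and its lowest value were both in the wild-type group. Abcc2 (chromosome 19, 43782192 to 43840740, plus strand) encodes MRP2, the apical exporter of conjugated organic anions. It had 76.1, 72.4 and 47.6 FPKM in the wild-type libraries, against 81.1, 75.5 and 77.6 FPKM in those of the knockout. The knockout libraries lay close together, and knockout replicate 2 lay below wild-type replicate 1.

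In order of level, each value of Abcg2 lay above each value of Abca3 and Abcc2, and these overlapped each other. Every value of Abca3 and Abcc2 lay above every value of Abce1, and Abce1 and Abcf1 overlapped. The other members of the drug and organic anion group were far lower. Abcc4, an apical exporter of urate and cyclic nucleotides in the proximal tubule, had a mean of 6.01 FPKM in wild-type kidney and of 5.81 FPKM in the knockout, and the P-glycoprotein genes Abcb1a and Abcb1b had 1.14 and 1.74 FPKM in wild-type kidney.

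NRF2, a factor that turns on drug exporters under oxidative stress, binds a short core, and its letters were looked for before the starts of the tested members. RefSeq (GRCm38.p6) gave 28 windows of 250 bases for 23 of the 29 members. The core TGACNNNGC, searched on both strands, stood in 4 of the 28 windows (14.3%), against 10.2% of all 32851 windows. They belong to 3 exporters of subfamily C and are shown because the gene of NRF2, Nfe2l2, is described with the transcription factors; capitals mark the core, and each sequence runs 5′ to 3′ along the gene's strand.
Abcc2, chr19:43782202-43782226, plus strand: cactgggaTGACATAGCattcatct
Abcc4, chr14:118676938-118676962, minus strand: taatctcgTGACTCTGCcgtggtgg
Abcc4, second start, chr14:118706228-118706252, minus strand, core on the opposite strand: cccgagagGCGGGGTCAgggcgggc
Abcc10, chr17:46328210-46328234, minus strand: cagcacccTGACCTGGCagcgcgtc
The nuclear receptor motif AGGTCA stood in 6 windows (21.4%, against 14.0% of all), in Abcb6, Abcc2, Abcc10 and Abcg2, and in Abcc10 a reverse copy overlaps the core shown. The sterol regulatory element that SREBP factors bind stood in 0 of the 28 windows and in 0.0731% of all. Windows were placed by RefSeq starts, which can lie inside the annotated gene spans. The core sites shown for Abcc2 and Abcc10 and the Abcc4 site at 118676938 lie inside those spans. The Abcc4 site at 118706228 lies before the span of its gene. A match is a description of letters, not evidence that a factor binds there.

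**Figure D1:**
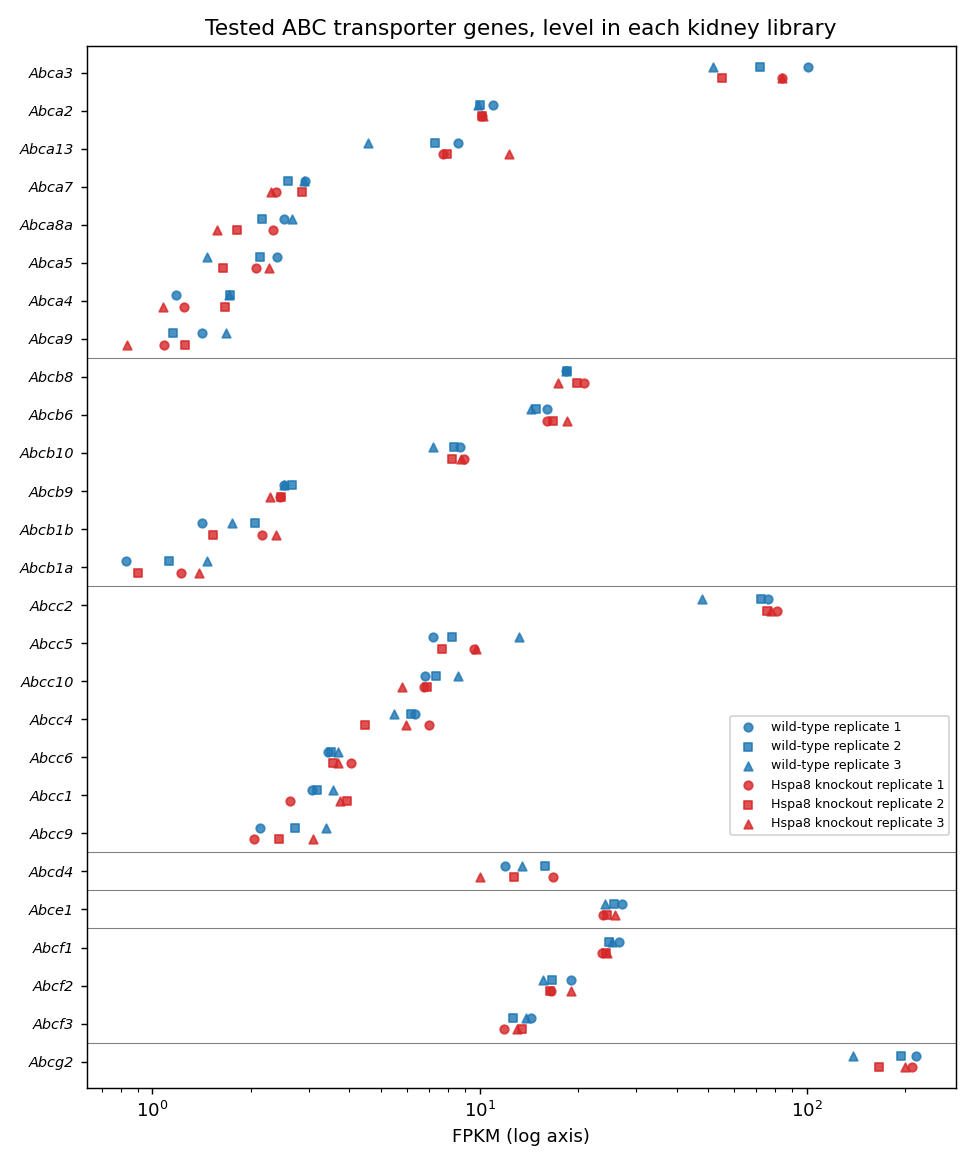
FPKM (log axis) of 27 of the 29 tested ABC genes in each of the 6 libraries, ordered by subfamily from A at the top to G at the bottom and by level within it; marker shape gives the replicate number. Abcg2 lies between 138 and 216 FPKM, above every other gene drawn, and wild-type and knockout points overlap for all genes drawn but Abcb6, Abcb9 and Abcf1.

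No ABC gene passed the test between knockout and wild-type kidney. Of the 29 tested members 0 passed at an adjusted p of 0.05 (limma with Benjamini-Hochberg adjustment over 12174 genes), where 0% of all tested genes passed, and adjusted p-values of the members ran from 0.973 to 0.998. At an unadjusted p under 0.05 there were likewise 0 members, against 5.17% of all tested genes, 0.953% higher and 4.21% lower. The log2 fold change, on the scale of log2(FPKM + 1), was above 0 for 15 members and below 0 for 14, with a median of 0.00609. Over all tested genes 35.1% lay above 0 and 64.9% below, and the median was -0.0399. Groups did not overlap for 3 members, against 10.6% of all tested genes. With the medians of the libraries equalised, 18 members lay above 0 and 11 below, and 53.5% of all tested genes lay above. For 19 of the 29 members the change was under 0.1 in size.

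The precision of these estimates bounds what could have been missed only on the scale of log2(FPKM + 1), which understates changes of low genes. With 0.1 added in place of 1, the log2 fold change of Abca9 was -0.39 ± 0.214 (SE, n = 3 per group), against -0.23 ± 0.126. With 1 added, the 95% interval of the difference included 0 and lay within 1 on the log2 scale for all 29 members and within 0.5 for 24 of them. The farthest lower bound was -0.56, for Abca3, and the farthest upper bound was 0.94, for Abca13. Leaving out wild-type replicate 3 turned the median of the members to -0.07, and leaving out knockout replicate 2 gave 0.06. An adjusted p above the threshold does not show that a gene is equal in both groups.

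**Figure D2:**
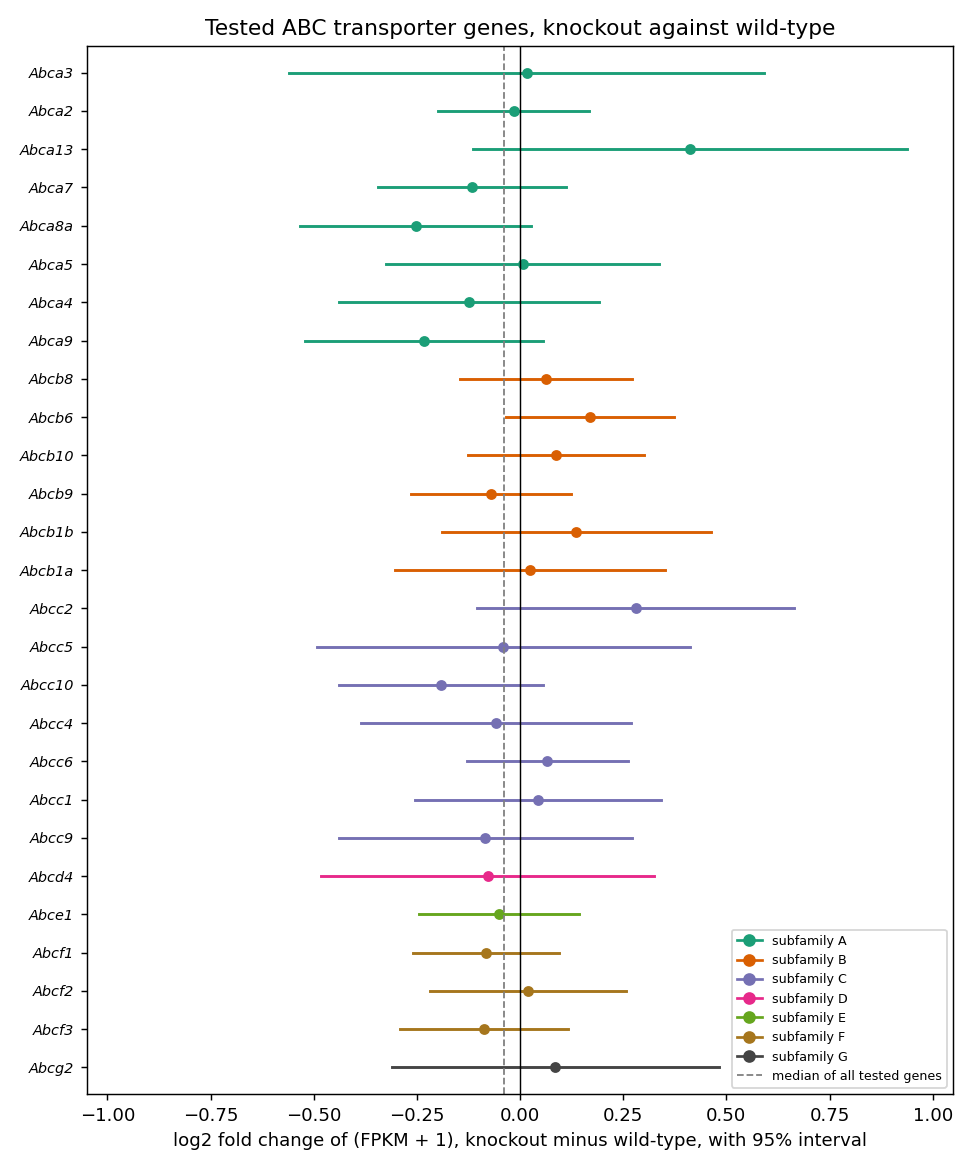
Log2 fold change of FPKM + 1, knockout minus wild-type, with the 95% interval from limma, for 27 of the 29 tested ABC genes, coloured by subfamily; the dashed line is the median of all 12174 tested genes. All 27 intervals drawn include 0, and Abca13 reaches farthest, to 0.94.

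Subfamily A showed no common direction. Of its 8 tested members 3 lay above 0 and 5 below, with a median log2 fold change of -0.07. Abca13 (chromosome 11, 9191942 to 9684259, plus strand) encodes one of the longest proteins of the family. It had 8.59, 7.31 and 4.55 FPKM in the wild-type libraries, against 7.75, 7.94 and 12.3 FPKM in those of the knockout. Its log2 fold change was 0.41 ± 0.228 (SE, n = 3 per group), and it was 0.18 once wild-type replicate 3 was left out and 0.22 once knockout replicate 3 was. Abca7, a lipid transporter that takes part in phagocytosis, had 2.92, 2.60 and 2.91 FPKM in the wild-type libraries, against 2.39, 2.87 and 2.31 FPKM in those of the knockout. Its groups overlapped, with a log2 fold change of -0.12, which was -0.07 once knockout replicate 3 was left out and -0.19 once knockout replicate 2 was. Abca2, a lysosomal lipid transporter, was the steadiest member, with its highest library only 1.12 times its lowest.

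Abca5, Abca6, Abca8a, Abca8b and Abca9 lie side by side on the minus strand of chromosome 11, between 109932190 and 110337716. Abca8a (110025634 to 110095978) had 2.51, 2.16 and 2.67 FPKM in the wild-type libraries, against 2.33, 1.81 and 1.58 FPKM in those of the knockout, a log2 fold change of -0.25 ± 0.121 (SE, n = 3 per group; limma adjusted p = 0.973). Abca9 (110100749 to 110168196) had 1.42, 1.16 and 1.68 FPKM in the wild-type libraries, against 1.09, 1.26 and 0.833 FPKM in those of the knockout. In both genes wild-type replicate 3 was highest, knockout replicate 3 was lowest, and the groups overlapped. Abca6, too low to be tested, had 0.152, 0.168 and 0.154 FPKM in the wild-type libraries, against 0.0807, 0.0992 and 0.0944 FPKM in those of the knockout, without overlap. Abca5 of the same cluster, a lysosomal protein, did not share the direction, with a log2 fold change of 0.01. Abca8a and Abca8b are close copies that can share reads, and their split is uncertain.

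Beside Abca8a, Abca9 and Abca6, markers of fibroblasts and endothelium also had lower sums in the knockout. The 6 fibroblast markers summed to 44.4, 47.9 and 61.03 FPKM in the wild-type group, against 34.0 to 42.9 FPKM in that of the knockout, and 5 of the 5 tested ones lay below 0. The 8 endothelial markers summed to 94.3 to 123 FPKM in the wild-type group, against 70.5 to 87.3 FPKM in that of the knockout, with 8 of 8 below 0, and no marker of either list was at 0. Other lists also leaned below 0, with 4 of 4 tested podocyte markers, 5 of 5 of smooth muscle and pericytes and 4 of 5 of leukocytes. The sums of these 3 lists overlapped between groups. The fibroblast sum, like Abca8a, was highest in wild-type replicate 3 and lowest in knockout replicate 3, and so were the endothelial and podocyte sums. Of all tested genes 30.2% were highest in wild-type replicate 3, 33.4% were lowest in knockout replicate 3, and 64.9% lay below 0. The part of these cell types in the ABC values was not tested. In whole tissue, fewer cells of a type and less RNA per cell cannot be told apart.

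Of the 7 tested members of subfamily B 6 lay above 0 and 1 below, with a median log2 fold change of 0.06. Among them Abcb6, Abcb8 and Abcb10 act in mitochondria. These stayed above 0 in each alternative run, with lowest log2 fold changes of 0.1177, 0.0083 and 0.0155, in that order. The alternative runs reuse the same 6 libraries. Abcb6 (chromosome 1, 75171717 to 75180392, minus strand), a porphyrin transporter, had 16.05, 14.8 and 14.3 FPKM in the wild-type libraries, against 16.09, 16.7 and 18.4 FPKM in those of the knockout. It was the 1 tested member of which every knockout value exceeded every wild-type value, against 2.01% of all tested genes, and the gap was narrow, since the highest wild-type value was 16.05 and the lowest knockout value 16.09 FPKM. Its log2 fold change was 0.17 ± 0.0886 (SE, n = 3 per group; limma adjusted p = 0.973; exact permutation p = 0.1).

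Abcb10, which serves haem synthesis at the inner membrane, had 8.70, 8.36 and 7.22 FPKM in the wild-type libraries, against 8.95, 8.21 and 8.74 FPKM in those of the knockout. The groups overlapped. Abcb8, an inner membrane protein linked to mitochondrial iron export, had 18.3, 18.5 and 18.4 FPKM in the wild-type libraries, against 20.8, 19.8 and 17.3 FPKM in those of the knockout, so that the wild-type libraries lay inside the knockout range. Red cell precursors use haem genes, and the 3 red cell markers summed to 27.0 to 33.4 FPKM in the wild-type libraries but to 259, 42.4 and 331 FPKM in those of the knockout, and their part in the ABC values was not tested.

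Abcb9, a lysosomal peptide transporter related to the antigen peptide transporter TAP, had 2.53, 2.67 and 2.52 FPKM in the wild-type libraries, against 2.45, 2.47 and 2.29 FPKM in those of the knockout. It and Abcf1 were the 2 tested members lower in the knockout without overlap, against 8.57% of all tested genes. The P-glycoprotein genes are also close copies. Abcb1a had 0.831, 1.12 and 1.47 FPKM in the wild-type libraries, against 1.22, 0.901 and 1.38 FPKM in those of the knockout. Abcb1b had 1.41, 2.06 and 1.75 FPKM in the wild-type libraries, against 2.16, 1.53 and 2.39 FPKM in those of the knockout. Within the knockout group both copies were lowest in replicate 2, and neither separated the groups.

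Subfamily C had 3 tested members above 0 and 4 below, with a median log2 fold change of -0.04. Abcc2 had the largest value, 0.28 ± 0.167 (SE, n = 3 per group; limma adjusted p = 0.995), which was 0.07 without wild-type replicate 3. Abcc10, a broad drug exporter, had 6.80, 7.33 and 8.57 FPKM in the wild-type libraries, against 6.78, 6.88 and 5.80 FPKM in those of the knockout. Its log2 fold change was -0.19, and it was -0.11 once wild-type replicate 3 was left out and -0.12 once knockout replicate 3 was. Abcc5, an exporter of cyclic nucleotides, ranged from 7.22 to 13.2 FPKM in the wild-type libraries, while the knockout lay between 7.69 and 9.74 FPKM. Abcc6, whose loss causes ectopic calcification in humans, and Abcc1 had log2 fold changes of 0.07 and 0.04.

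Abcc9 encodes SUR2, the regulatory subunit of an ATP-sensitive potassium channel, and the pore subunit gene Kcnj8 lies beside it on chromosome 6. Abcc9 had 2.14, 2.72 and 3.38 FPKM in the wild-type libraries, against 2.05, 2.43 and 3.10 FPKM in those of the knockout. Kcnj8 had 2.20, 2.85 and 3.36 FPKM in the wild-type libraries, against 2.22, 2.61 and 3.08 FPKM in those of the knockout. The 2 subunits thus followed each other from library to library at a similar level. Wild-type replicate 3 was highest for both, and both genotypes spanned most of the range. The smooth muscle and pericyte markers were also highest in wild-type replicate 3, at 59.4 FPKM in sum against 31.5 to 37.9 FPKM in the other libraries. That library was also the highest for 30.2% of all tested genes. In knockout replicate 3, where Abcc9 and Kcnj8 were next highest, the marker sum was only 31.7 FPKM. The part of these markers was not tested.

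In subfamily D, Abcd4, which moves cobalamin out of lysosomes, had 11.9, 15.9 and 13.4 FPKM in the wild-type libraries, against 16.7, 12.7 and 10.01 FPKM in those of the knockout. Its knockout libraries held both its highest and its lowest value.

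Of the 4 ribosome-acting members 1 lay above 0 and 3 below, with a median of -0.07. Abce1 (chromosome 8, 79683462 to 79711740, minus strand), which splits ribosomes after termination, had 27.1, 25.7 and 24.1 FPKM in the wild-type libraries, against 23.8, 24.4 and 25.9 FPKM in those of the knockout. Abcf1 (chromosome 17, 35956819 to 35969761, minus strand), which promotes translation initiation, had 26.7, 24.9 and 25.3 FPKM in the wild-type libraries, against 23.7, 24.4 and 24.5 FPKM in those of the knockout. Its groups did not overlap, but the log2 fold change was only -0.08 ± 0.0769 (SE, n = 3 per group; limma adjusted p = 0.998), with a 95% interval from -0.26 to 0.10, and it was -0.05 once wild-type replicate 1 was left out. Abcf2 and Abcf3 had log2 fold changes of 0.02 and -0.09.

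Several members were lowest in the same library of each group. Wild-type replicate 3 was the lowest library for 11 of the 29 members (37.9%), against 24.2% of all tested genes, and wild-type replicate 3 and knockout replicate 2 were the lowest pair for 8 (27.6%, against 15.2% of all tested genes). Abca3, Abca5, Abcb10, Abcc4, Abcf2 and Abcg2 were among them, and 0 members had the same 2 libraries as their highest pair, against 22.7% of all tested genes. Of the 6 proximal tubule markers 3, Lrp2, Cubn and Slc34a1, had these 2 libraries as their lowest pair, while Aqp1 had them as its highest pair. The summed proximal tubule markers, most of which is Slc34a1, were 2304 and 2138 FPKM there. The sums of the 3 distal convoluted tubule markers (134.4 and 134.9 FPKM) and of the 3 intercalated cell markers (58.8 and 56.0 FPKM) were also lowest in these 2 libraries. Of these markers Slc12a3, Atp6v1b1 and Slc26a4 had them as their lowest pair, and Pvalb as its highest. The 3 thick ascending limb markers each had these 2 libraries as their highest pair, at 1443 and 1545 FPKM in sum. The leukocyte sum and the smooth muscle and pericyte sum were highest there too. The part of any of these cell types in the ABC values was not tested. Without wild-type replicate 3 the log2 fold change of Abcg2 turned from 0.09 to -0.10 and that of Abca3 from 0.02 to -0.22.

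**Figure D3:**
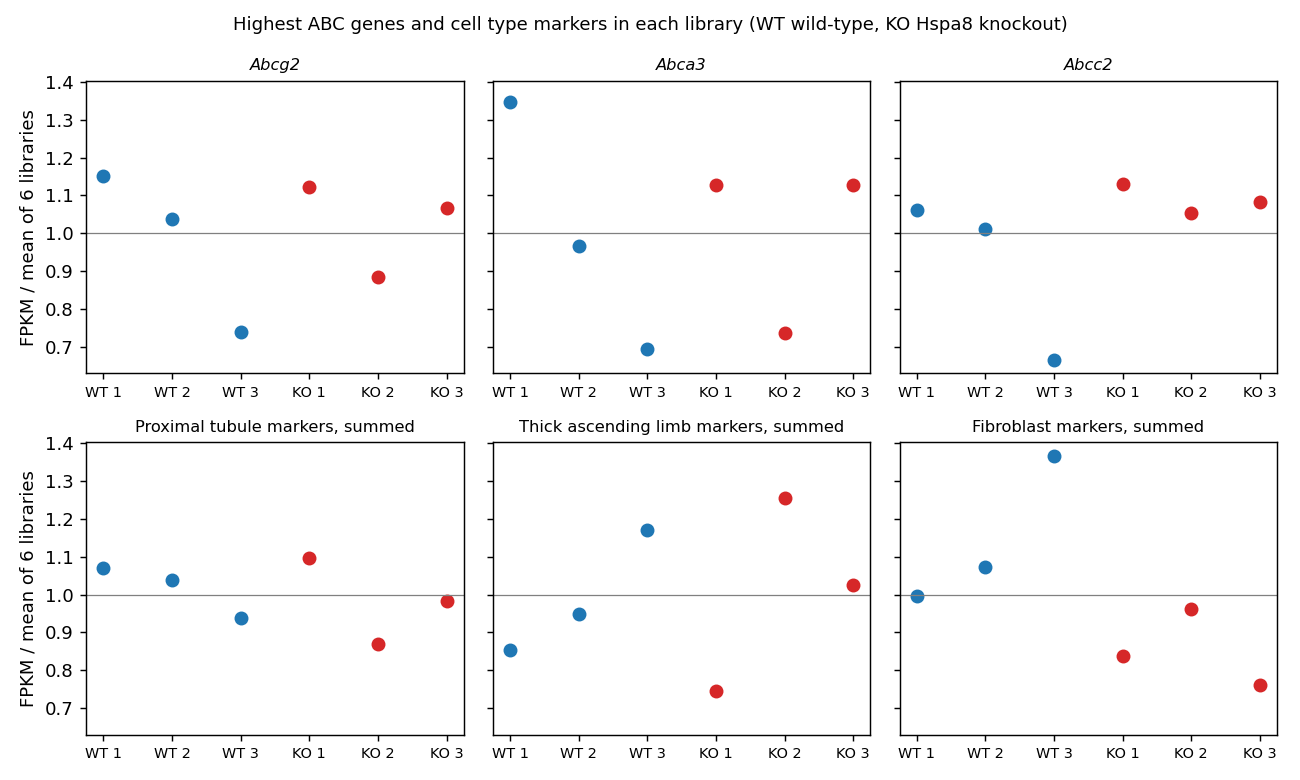
FPKM divided by the mean of the 6 libraries for Abcg2, Abca3 and Abcc2 (top) and for summed markers of proximal tubule, thick ascending limb and fibroblasts (bottom), 1 point per library, wild-type in blue and knockout in red. Abcg2 and Abca3 are lowest in wild-type replicate 3 and knockout replicate 2, where the thick ascending limb markers are highest, while Abcc2 is low in wild-type replicate 3 only.

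Among the 13 members listed above 0 but not tested, Abcc8, the SUR1 potassium channel subunit, had 0.0299, 0.0394 and 0.0480 FPKM in the wild-type libraries, against 0.0520, 0.0688 and 0.0532 FPKM in those of the knockout. These groups did not overlap, at levels too low to be tested, and the gap ran only from 0.0480 to 0.0520 FPKM. How often groups do not overlap among untested genes was not counted, for this gene or the other untested genes named. Abcg5 and Abcg8, the sterol exporters of liver and gut, whose annotated spans overlap on opposite strands of chromosome 17, stayed under 0.1 FPKM in each library. Abcc12 had 0.00769 FPKM in knockout replicate 2 and was listed at 0 in the other 5 libraries. Abcc3, a basolateral anion exporter, ranged from 0.198 to 0.501 FPKM.

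ABC genes that carry other symbols were also without a call. Of Tap1, Tap2 and Cftr 0 of 3 passed, and all 3 lay below 0. Tap2, part of the antigen peptide transporter, had 7.31, 8.58 and 9.17 FPKM in the wild-type libraries, against 7.16, 7.56 and 6.62 FPKM in those of the knockout, with overlap. Partners of ABC proteins gave 0 of 16 tested genes past the threshold, 11 above 0 and 5 below, with log2 fold changes from -0.22 for Pelo, a ribosome rescue factor that works with ABCE1, to 0.14 for Mmachc, which handles the cobalamin that ABCD4 releases. Drug uptake and exchange carriers gave 0 of 7, with 3 above 0 and 4 below, and log2 fold changes from -0.27 for Slco2b1 to 0.28 for Slc22a6. Slc22a6, the basolateral anion carrier OAT1 that feeds the apical exporters, had 276, 243 and 213 FPKM in the wild-type libraries, against 305, 263 and 320 FPKM in those of the knockout, a log2 fold change of 0.28 with overlapping groups.

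Transcription factors known to regulate ABC genes gave 0 of 13 tested genes past the threshold, 4 above 0 and 9 below. Nfe2l2, which encodes NRF2, had 41.7, 38.4 and 37.1 FPKM in the wild-type libraries, against 33.4, 34.6 and 35.1 FPKM in those of the knockout. Its groups did not overlap, and its log2 fold change was -0.18 (limma adjusted p = 0.973). The 3 exporter genes with the NRF2 core before a start, Abcc2, Abcc4 and Abcc10, had log2 fold changes of 0.28, -0.06 and -0.19. Rxrb, a partner of many nuclear receptors, and Nr1h2, the sterol receptor LXR beta, were also lower without overlap, at -0.19 and -0.12. That made 3 of the 13 tested factors, against 8.57% of all tested genes. Nr1i3 of the same list, too low to be tested, was higher in the knockout without overlap. It had 0.0877, 0.0289 and 0.0542 FPKM in the wild-type libraries, against 0.254, 0.294 and 0.0970 FPKM in those of the knockout. Hnf4a, a factor of proximal tubule identity, was at -0.04.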

How the data were processed

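Gene-level FPKM of the 6 libraries stand in a single table that the authors deposited, as its header and values show, and the submitters' processing notes give the builds GRCm38 and mm10. Aligner, quantifier and annotation: not given in the sources used here. The library kit was SMARTer mRNA, per the labels' protocols. Groups follow the genotype labels. Knockout columns carry A8, which ends HSPA8 in the knockout titles, and the titles' numbers; 0 columns were left over. The labels do not state separate animals, and the p-values then reflect the spread among 6 samples that may be technical.

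FPKM hold no totals. Among genes under 0.1 FPKM in both libraries of a pair no ratio (bins of 0.005 log2) held over 0.625% of genes, so reads were not recovered and depth is unknown; low values are less precise. No gene above 0 had identical values in any pair of libraries.

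Genes with a mean of at least 1 FPKM over 6 libraries (12174) were tested as log2(FPKM + 1), which understates changes of low genes, with limma 3.58.1 in R 4.3.3: group as the only term, trended empirical Bayes variance, two-sided, Benjamini-Hochberg threshold 0.05. Single genes also got an exact permutation test. On simulated data of 12174 genes, 67, 67 and 66 genes were changed by 0.5, 1 and 2 on the log2 scale. The fit called 40.3%, 85.1% and 97.0% of them, with 12 false calls. Noise was drawn independently for each gene and library, without the variation that genes share within a library. These rates therefore need not hold for the kidney data, where Hspa8, at a log2 fold change of -0.70, had a limma adjusted p of 0.866. Coordinates are whole genes in GENCODE M21 (GRCm38), matched by symbol for 47 of 47 members. No tested member overlapped another gene of the table with a mean of at least 1 FPKM.

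The members, lists and tests were chosen with earlier results of these data known. Members given library by library are the highest of each subfamily, 5 each way by smallest p and close copies (Abcb1a, Abcb1b, Abca8a); of each related list up to 4 genes with the smallest p were eligible. Abca6, Abcb9, Abcc9, Abcc8, Kcnj8, Nr1h2 and the other genes named beyond these were chosen after their values were seen. Some genes are counted in the totals but not reported by name here. Protein sequences were not used here. Alternatives changed the pseudocount, filter, scaling, variance model, replicate block and libraries. Figures were drawn with matplotlib 3.10.9.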

Additional observations from a re-analysis of the deposited data

How the results depend on the processing

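In all 17 alternatives 0 ABC members were called over all genes. Over all genes 5 were called when wild-type replicate 3 was left out along with knockout replicate 2, and 0 to 5 when 1 library was left out. At an unadjusted p under 0.05 there was 1 member with no filter (Abca6), with medians equalised (Abcb6), with quantiles equalised (Abcb6) and without this pair (Abcc5), and 0 to 2 with 1 library left out. The members' median ran from -0.0719 to 0.0553 with 1 library left out. The subfamily A median was 0.0162 at a mean of at least 5 FPKM, where 3 members were left. The subfamily B median was 0.116 with medians equalised and 0.00828 to 0.116 with 1 library left out, and that of C was 0.0499 without this pair and -0.0832 to 0.07 with 1 left out. Single genes near 0 changed sign: with 1 library left out Abca3 ran from -0.22 to 0.25, Abcb1a from -0.0836 to 0.13, Abcd4 from -0.25 to 0.0888 and Abcg2 from -0.10 to 0.22; Abca3 was -0.0182 without this pair and Abce1 0.0039 with medians equalised. Equalising sums, medians or quantiles moved the members above 0 from 15 to 17, 18 or 17 of 29. With the replicate number as a block 0 members were called and the median stayed at 0.00609. Deviations of same-numbered libraries from their group means correlated at 0.31, -0.21 and -0.32. Such deviations sum to 0 within each group, so these correlations depend on each other and cannot show whether the numbers pair the samples. The cause of these shifts was not tested. Unknown depth limits the 13 low members most.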
